A study of Rattus norvegicus with 9 samples.

Results

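Ppara and 7 genes of fatty acid oxidation that its protein is known to switch on were followed across 9 RNA-seq libraries of rat adipose tissue. The genes were chosen by name, as the rows Ppara, Ehhadh, Acaa1a, Hsd17b4, Cpt1a, Pdk4, Acadm and Acadl, and make up 8 of the 32883 rows of the expression table. They were selected on earlier results of these same libraries, so their values are a description, given with fold changes and 95% intervals. How many of them lie past the threshold of the fit across all genes is given only beside the share of all genes that do, and is not used as a test of them. The study asked which genes an anthocyanin-rich black bean extract alters in the fat of diabetic rats.

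All animals were male Wistar rats of wild-type genotype, with 3 libraries in each group, taken at day 31. BB rats ate a high fat diet, were injected with a low dose of streptozotocin (25 mg/kg), a toxin of the insulin-producing beta cells, and were then gavaged with the extract at 260 mg/kg/day. DB rats had the same diet and toxin and were gavaged with water. HE rats ate a standard diet and were injected with buffer alone, and the study's methods state no gavage for them. Diet, toxin and any difference in gavage therefore cannot be told apart when DB is set against HE. The sources used here do not give the rats' ages, and the fat depot was retroperitoneal according to the study's methods. The labels number the rats but do not otherwise describe how libraries relate to animals, so any p-value reflects the scatter among these libraries alone, part of which may be technical.

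Ppara encodes PPAR alpha, a nuclear receptor that is activated by fatty acids and their derivatives, above all during fasting. Together with a retinoid X receptor (RXR) it binds paired copies of a short half-site, AGGTCA, and raises the transcription of genes that take up and oxidise fatty acids in mitochondria and peroxisomes. It is known for its high level in liver, heart, kidney and brown fat, whereas in white fat its relative PPAR gamma (Pparg) is the dominant member of the family.

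The promoters of the genes that the results turn on were read from RefSeq (assembly GRCr8) as windows of 250 bases before to 50 bases after the start, which were on hand for 7 of the 8 genes (not Acadl). The windows of Ehhadh and Slc27a2 are shown because these oxidation genes were lower in DB than in HE libraries, and that of Hsd17b4 because it alone of the 7 holds the half-site. Capitals mark AGGTCA or its complement TGACCT, searched on both strands. The letters lie 56 bases before the start in Hsd17b4 and 76 bases before it in Slc27a2, on the opposite strand.
Ehhadh, chr11:92746159-92746458, plus strand: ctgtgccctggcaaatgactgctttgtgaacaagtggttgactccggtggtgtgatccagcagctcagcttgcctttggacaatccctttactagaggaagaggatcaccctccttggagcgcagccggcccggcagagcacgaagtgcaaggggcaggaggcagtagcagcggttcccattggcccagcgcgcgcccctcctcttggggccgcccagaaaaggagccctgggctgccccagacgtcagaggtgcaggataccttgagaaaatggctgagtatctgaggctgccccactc
Hsd17b4, chr18:45515177-45515476, plus strand: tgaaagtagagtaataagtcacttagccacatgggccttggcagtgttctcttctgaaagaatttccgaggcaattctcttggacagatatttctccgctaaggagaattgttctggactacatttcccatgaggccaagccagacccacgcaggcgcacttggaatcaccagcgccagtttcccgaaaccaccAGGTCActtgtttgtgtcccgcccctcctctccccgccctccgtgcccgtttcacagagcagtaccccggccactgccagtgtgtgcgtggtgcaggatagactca
Slc27a2, chr3:134257851-134258150, plus strand: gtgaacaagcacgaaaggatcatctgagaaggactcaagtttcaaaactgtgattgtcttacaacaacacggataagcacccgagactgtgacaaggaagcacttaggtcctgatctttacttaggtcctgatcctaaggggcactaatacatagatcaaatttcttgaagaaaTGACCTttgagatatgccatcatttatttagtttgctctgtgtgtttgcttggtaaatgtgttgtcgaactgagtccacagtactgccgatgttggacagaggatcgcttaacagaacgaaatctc
A half-site occurs in 16.2% of all 33469 windows, against 1 of the 7 windows here, and in 22 of the 87 windows found for the wider pathway genes described further on. A pair of half-sites in the same direction with any base between them occurs in 0.0538% of all windows and in none of these 7. A match is only a match of letters, and its absence says only that these letters are not in the window.

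The deposited value of a gene is its read count divided by a factor for its library. The libraries held 2771967 to 3542749 reads, except BB replicate 8 with 12267084, and a single read was worth 0.672 to 0.913 units of that value, apart from BB replicate 8, where it was worth 14.6. That library stood apart: 47.4% of its genes were at 0, its 10 most abundant genes took 76.5% of its reads (10.2% to 19.2% in the other 8), and its correlation with them was 0.577 to 0.594 (0.961 to 0.969 among themselves, log2 values across genes). It was therefore left out of the fits and is shown apart, which leaves 2 BB libraries. The adipocyte markers (12 of 12 in the table, none at 0 in the 8 libraries) had a median percentile of 75.7 among all genes, and the hepatocyte markers (11 of 12, none at 0) one of 84.8. The macrophage (96.9), endothelial (95.9) and kidney and adrenal markers (81.7) also had a higher median percentile than the adipocyte markers. Muscle (68.0), lymphocyte (56.9), erythroid (49.9) and brown fat markers (44.4) had a lower one. None of these percentiles takes gene length into account. The data columns end in H where the sample titles end in TA, and neither code is explained, so columns were matched by group and rat number. All 1140 olfactory receptor genes, which fat is not known to use, had reads in all 8 libraries, with a median value of 17.7 against 30.8 over all genes. Values of that order are therefore also found for genes outside their usual tissue. Higher ones occur too: the olfactory receptor gene Olr53, looked up for its likeness to Ehhadh, had a mean of 67.8. The highest mean was 459 among the muscle markers and 533 among the kidney and adrenal markers. The 8 given genes, with means of 39.2 to 146, lie within this range. What part of their values is of this kind was not tested.

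**Figure D1:**
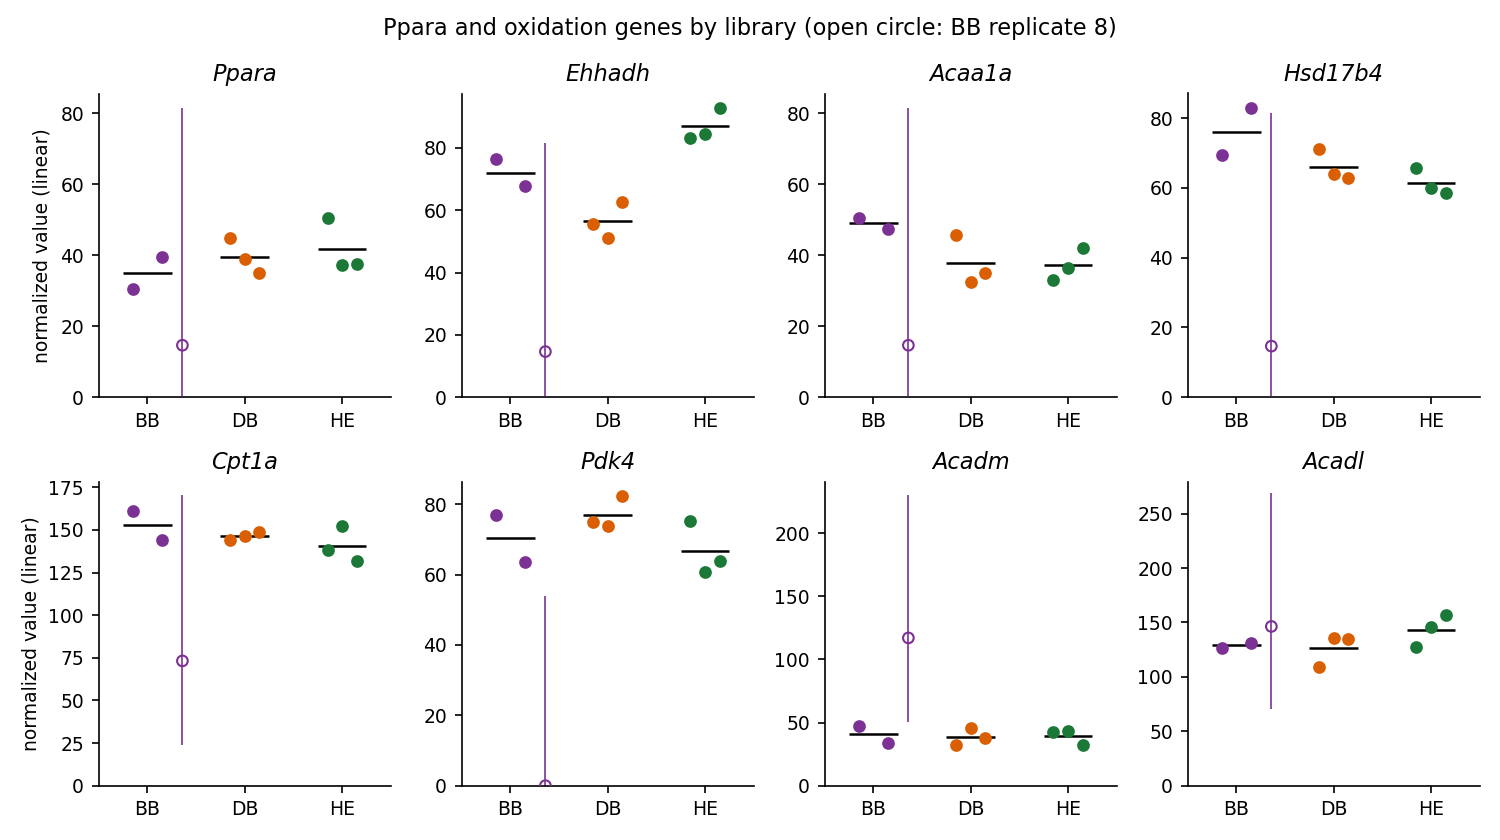
Normalized value of each of the 8 genes (linear axis from 0) in BB, DB and HE libraries; filled circles are the 8 libraries of the fits, black lines their group means, and the open circle with its vertical line is BB replicate 8 with its 95% counting interval. Only Ehhadh had all DB libraries (51.0 to 62.8) below both BB libraries and these below all HE libraries (83.3 to 92.9).

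Ppara itself showed no separation of the groups. It stood at 30.4 and 39.5 in BB replicates 1 and 4, at 44.7, 38.9 and 35.1 in DB replicates 1, 2 and 6, and at 50.4, 37.2 and 37.5 in HE replicates 2, 3 and 4. The means, 34.9 ± 6.43 in BB, 39.6 ± 4.84 in DB and 41.7 ± 7.53 in HE (SD, n = 2, 3 and 3), follow the order BB, DB, HE, but neighbours in that order overlapped. The log2 fold change was -0.07 in DB over HE (SE 0.18, 95% interval -0.45 to 0.32), -0.18 in BB over DB (SE 0.21, -0.61 to 0.25) and -0.25 in BB over HE (SE 0.21, -0.68 to 0.18). Changes of Ppara mRNA within these intervals are thus not excluded at this depth, where 39 to 75 reads of the gene were counted per library. The intervals are not the limit of detection of the test adjusted over all genes. The spread within groups (coefficient of variation 18.4% in BB, 12.2% in DB and 18.1% in HE) was near what counting alone gives (15.1%, 14.4% and 13.7%).

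Of the given peroxisomal genes, Ehhadh differed most in DB over HE, though not in BB over DB or in BB over HE. It encodes the bifunctional enzyme that carries out the hydration and dehydrogenation steps of peroxisomal beta-oxidation and is a classical PPAR alpha target in rodent liver. Its value was 76.3 and 67.6 in BB, 55.7, 51.0 and 62.8 in DB, and 83.3, 84.6 and 92.9 in HE libraries. The groups did not overlap in any comparison, in the order DB, BB, HE. Its mean was 72.0 ± 6.13 in BB, 56.5 ± 5.93 in DB and 86.9 ± 5.20 in HE (SD, n = 2, 3 and 3). DB libraries had 0.653 times the HE level (log2 fold change -0.62, SE 0.14, 95% interval -0.90 to -0.33). BB libraries had 1.27 times the DB level (log2 0.35, SE 0.15, 0.03 to 0.66) and 0.830 times the HE level (log2 -0.27, SE 0.15, -0.59 to 0.05). All BB libraries lie between all DB and all HE libraries, in either order, in 0.748% of the 32371 genes tested, and Ehhadh was selected on these values, so nothing further is read from its position.

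Some markers of other tissues lay lower in DB libraries as well. Of the 11 hepatocyte markers, 9 had a log2 fold change below 0 in DB over HE (median of the list -0.12), and 2 passed the test across all genes: Alb, albumin, at -1.12 (SE 0.14, limma adjusted p = 0.000145), and Tf, transferrin, at -0.49 (SE 0.11, limma adjusted p = 0.0363, named after its values were seen). The list was not uniform. Ttr had -0.63 (SE 0.19, limma adjusted p = 0.172) and Apoc1 -0.62 (SE 0.29, limma adjusted p = 0.522), whereas Serpina1 (-0.05), Apob (-0.03) and Cps1 (-0.07) were near 0. Tat, a liver aminotransferase, had 0.20, and Cyp2e1, a liver cytochrome P450, had 0.46 (SE 0.16, limma adjusted p = 0.266). All of these but Ttr were named after their values were seen. In BB over DB 2 of the 11 hepatocyte markers lay below 0 (median of the list 0.21), and none passed the test. Alb was 438 and 501 in BB, 263, 251 and 283 in DB, and 486, 738 and 541 in HE libraries. The summed level of the hepatocyte markers was 1988 to 2005 in BB, 1589 to 1623 in DB and 1889 to 2440 in HE libraries. All 7 kidney and adrenal markers in the table likewise lay below 0 in DB over HE (median -0.18), none of them past the test, and their sum was 1443 to 1688 in BB, 1423 to 1522 in DB and 1560 to 1726 in HE libraries. The other lists were mixed. Below 0 were 2 of 5 muscle, 3 of 5 macrophage, 2 of 4 endothelial and 1 of 2 erythroid markers. So were 3 of 4 brown fat, 5 of 6 lymphocyte and 6 of 12 adipocyte markers. The sum of the adipocyte markers, none of which passed the test in any comparison, was 893 to 958 in BB, 911 to 1108 in DB and 947 to 1111 in HE libraries. Over the 8 libraries, which share the same 3 groups, Ehhadh had a Pearson r of 0.88 with Alb and 0.88 with Tf. These genes lay past the threshold in the same comparison of these libraries, so a high r was set in advance. The r of Ehhadh with the other hepatocyte markers was not computed. In these whole-tissue samples, fewer cells of a type and less RNA per cell cannot be told apart, and the part of RNA from other tissues in the Ehhadh values was not tested.

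Acaa1a encodes the peroxisomal thiolase, which cleaves off acetyl-CoA in the last step of the cycle. It was 50.6 and 47.5 in BB, 45.7, 32.4 and 35.1 in DB, and 32.9, 36.4 and 42.1 in HE libraries. Both BB libraries lay above all others, while DB and HE overlapped. The log2 fold change was 0.38 in BB over DB (SE 0.20, 95% interval -0.03 to 0.80), 0.40 in BB over HE (SE 0.20, -0.02 to 0.81) and 0.01 in DB over HE (SE 0.18, -0.36 to 0.38).

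Hsd17b4 encodes the other bifunctional enzyme of peroxisomes, which acts on branched-chain and very long chain substrates. It was 69.3 and 82.9 in BB, 71.2, 64.0 and 62.8 in DB, and 65.8, 60.0 and 58.5 in HE libraries. BB and HE did not overlap, but BB with DB and DB with HE did. On the log2 scale its fold change was 0.30 in BB over HE (SE 0.15, 95% interval -0.02 to 0.62), 0.20 in BB over DB (SE 0.15, -0.12 to 0.52) and 0.10 in DB over HE (SE 0.14, -0.19 to 0.39). The bifunctional enzymes thus differed in order: Hsd17b4 was lowest on average in HE and Ehhadh highest there.

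The mitochondrial genes were close to level across the groups. Cpt1a encodes carnitine palmitoyltransferase 1 in its liver form, the gate through which long-chain fatty acids enter mitochondria. It was 161 and 144 in BB, 144, 147 and 149 in DB, and 138, 152 and 132 in HE libraries, with overlap in every comparison. Its fold changes had the narrowest intervals of the 8 genes, 0.885 to 1.23 in DB over HE and 0.867 to 1.25 in BB over DB, so that changes beyond about these bounds lie outside the 95% interval.

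Acadm encodes medium-chain acyl-CoA dehydrogenase, the enzyme for fatty acids of medium length. It was 47.5 and 33.8 in BB, 32.0, 45.3 and 38.1 in DB, and 42.3, 43.1 and 32.0 in HE libraries. In log2 terms the difference was -0.03 in DB over HE (SE 0.19, 95% interval -0.43 to 0.38) and 0.07 in BB over DB (SE 0.22, -0.38 to 0.52). With 35 to 63 reads per library it was, beside Ppara, among the least precisely measured of the 8.

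Acadl encodes long-chain acyl-CoA dehydrogenase. It was 127 and 131 in BB, 109, 136 and 135 in DB, and 128, 145 and 157 in HE libraries, and the groups overlapped throughout. The log2 fold change was -0.18 in DB over HE (SE 0.12, 95% interval -0.44 to 0.08), 0.04 in BB over DB (SE 0.14, -0.25 to 0.33) and -0.14 in BB over HE (SE 0.14, -0.44 to 0.15).

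Pdk4 encodes pyruvate dehydrogenase kinase 4, which turns off the entry of pyruvate into the citric acid cycle when fatty acids are burned. It was 77.1 and 63.6 in BB, 74.9, 73.7 and 82.2 in DB, and 75.2, 60.9 and 64.0 in HE libraries. DB was highest on average, but HE replicate 2 lay within the range of the DB libraries. Its log2 fold change was 0.21 in DB over HE (SE 0.14, 95% interval -0.08 to 0.50), -0.13 in BB over DB (SE 0.16, -0.46 to 0.19) and 0.08 in BB over HE (SE 0.16, -0.25 to 0.40).

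**Figure D2:**
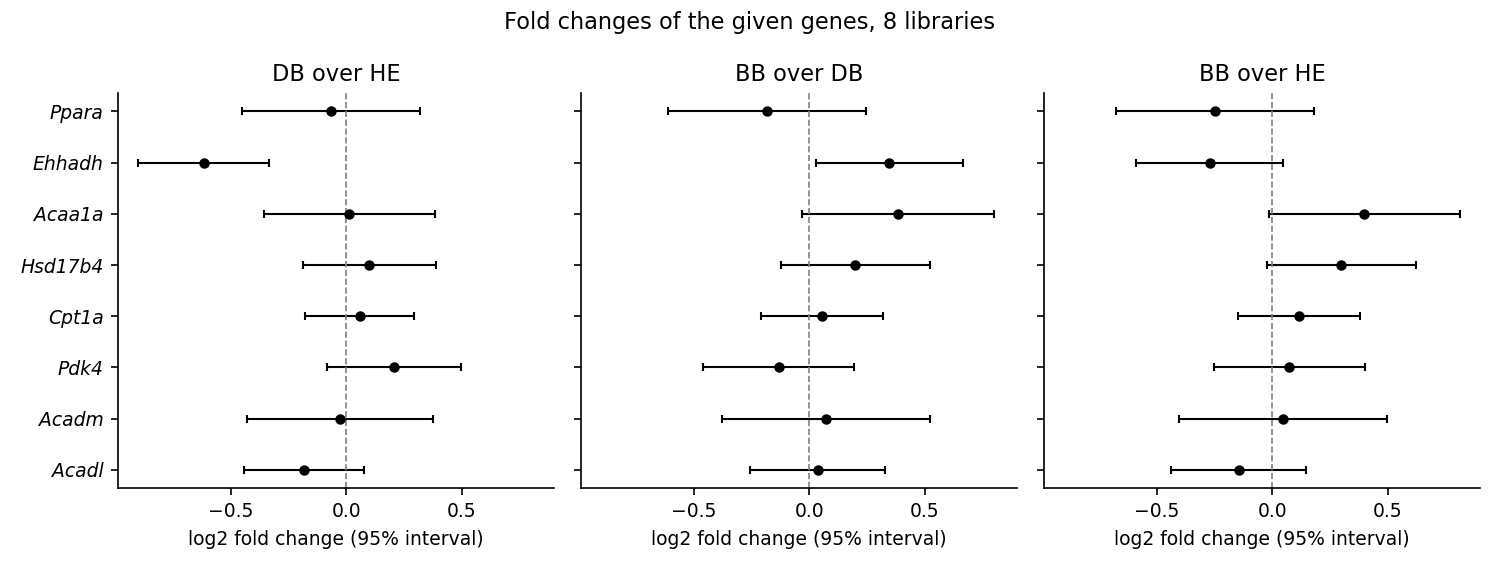
Log2 fold change of each of the 8 genes (points) with its 95% interval (bars) in DB over HE, BB over DB and BB over HE, from the 8 libraries of the fits; the dashed line marks no difference. The interval left out 0 only for Ehhadh, in DB over HE (-0.90 to -0.33) and in BB over DB (0.03 to 0.66). An interval without 0 amounts to an unadjusted limma p under 0.05. Of all genes tested, 9.43% had this in DB over HE and 4.95% in BB over DB.

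Set side by side, the 8 genes did not move as a block. All 8 passed the filter on low values. In DB over HE 4 lay above 0 and 4 below, with a median log2 fold change of -0.01 against 0.01 over all genes tested. In BB over DB 6 lay above 0 and 2 below (median 0.06, all genes 0.00), and in BB over HE 5 above and 3 below (median 0.06, all genes 0.00). The groups did not overlap for 1 gene in DB over HE (Ehhadh), for 2 in BB over DB (Ehhadh and Acaa1a) and for 3 in BB over HE (Ehhadh, Acaa1a and Hsd17b4), against 14.1%, 19.6% and 22.1% of all genes. The comparisons share libraries, so these counts are not independent. Over the 28 pairs of the 8 genes, the Pearson r across the 8 libraries had a median of -0.12 and ran between -0.63 (Ppara with Cpt1a) and 0.65, with 11 pairs above 0.

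At an adjusted p under 0.05 in limma, fitted across all 32371 genes, 1 of the 8 genes (Ehhadh) passed in DB over HE, where 219 genes or 0.677% of all passed (108 higher and 111 lower in DB). With scaling to total reads the call took in 333 genes, 100 higher and 233 lower. None of the 8 passed in BB over DB, where limma called 0 genes (0%), with 1603 genes at an unadjusted p under 0.05, and edgeR called 1 and DESeq2 2. None passed in BB over HE either, where 62 genes (0.192%) did, 14 higher and 48 lower in BB. Because these contrasts were in view when the genes were picked, nothing is read from the 8 genes' counts. Ehhadh also no longer lay past the threshold when any one of the 3 DB or the 3 HE libraries was left out, or in DESeq2.

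BB replicate 8 could add little on these genes. It counted 1 read each of Ppara, Ehhadh, Acaa1a and Hsd17b4, which stands for a value of 14.6 with a 95% counting interval of 0.370 to 81.5 (exact Poisson, counting error only). It had 5 reads of Cpt1a (73.2) and 10 of Acadl (146). For these 6 genes the interval took in the mean of the other 8 libraries. It did not for Pdk4, with 0 reads (up to 54.0, against a mean of 71.4), nor for Acadm, with 8 reads (117, interval 50.5 to 231, against a mean of 39.3). When this library was kept in the fit, the log2 fold change of Ehhadh in BB over DB was -0.39, and that of Pdk4 -2.18. With it the median over all genes moved to -0.51 in BB over DB, so that relative to that shift Ehhadh was not low.

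The wider pathway was read from 6 lists of 110 genes, of which 104 were in the table and tested. In DB over HE limma called 1 of them higher and 1 lower, 1.92% of the 104 against 0.677% of all genes, and 46 of the 104 had a log2 fold change above 0 (median -0.03). At an unadjusted p under 0.05 were 15 of the 104, against 9.43% of all genes. In BB over DB it called none, with 3 of the 104 at an unadjusted p under 0.05 (4.95% of all genes). In BB over HE it called 1 lower, 0.962% of the 104 against 0.192% of all genes, with 10 at an unadjusted p under 0.05 (6.86% of all genes). Nothing is called particular to these lists from such small counts. The calls fell on a fatty acid transporter, a liver transcription factor and an RXR.

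Slc27a2 encodes a very long chain acyl-CoA synthetase and fatty acid transporter of peroxisomes and the endoplasmic reticulum, and it was the gene called lower. It was 872 and 1031 in BB, 727, 884 and 822 in DB, and 1231, 1284 and 1163 in HE libraries. All DB libraries lay well below the HE libraries and overlapped with BB. The log2 fold change in DB over HE was -0.60 (SE 0.13, limma adjusted p = 0.0318), and in BB over DB 0.23 (SE 0.14, limma adjusted p = 0.998). Of the other 21 peroxisomal genes tested, none passed in DB over HE, and the list's median was 0.03 against 0.01 over all genes.

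Creb3l3 encodes CREBH, a membrane-bound transcription factor known from liver, where it acts with PPAR alpha during fasting. It was 146 and 155 in BB, 197, 158 and 152 in DB, and 105, 131 and 105 in HE libraries. It rose in DB over HE, by 0.57 on the log2 scale (SE 0.13, limma adjusted p = 0.0472), and its BB values overlapped with DB and lay above HE. It was the only call among the 23 other PPAR targets tested, whose median was -0.10 in DB over HE and 0.03 in BB over DB. Among these, G0s2, an inhibitor of the lipase ATGL, was 34.3 and 32.2 in BB, 21.0, 30.8 and 21.7 in DB, and 32.2, 37.2 and 40.6 in HE libraries (log2 -0.58 in DB over HE, SE 0.20, limma adjusted p = 0.276).

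Rxrb encodes RXR beta, a partner with which PPARs bind DNA. It was 139 and 130 in BB, 152, 155 and 138 in DB, and 212, 198 and 205 in HE libraries. It fell in BB over HE, with a log2 fold change of -0.60 (SE 0.12, limma adjusted p = 0.0469), and had -0.46 in DB over HE (SE 0.11, limma adjusted p = 0.0573), so both diabetic groups lay below all HE libraries. None of the other 14 receptors, coactivators and corepressors passed in any comparison. Crebbp, the coactivator CBP, had a log2 fold change of -0.33 in DB over HE (SE 0.11, limma adjusted p = 0.269).

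**Figure D3:**
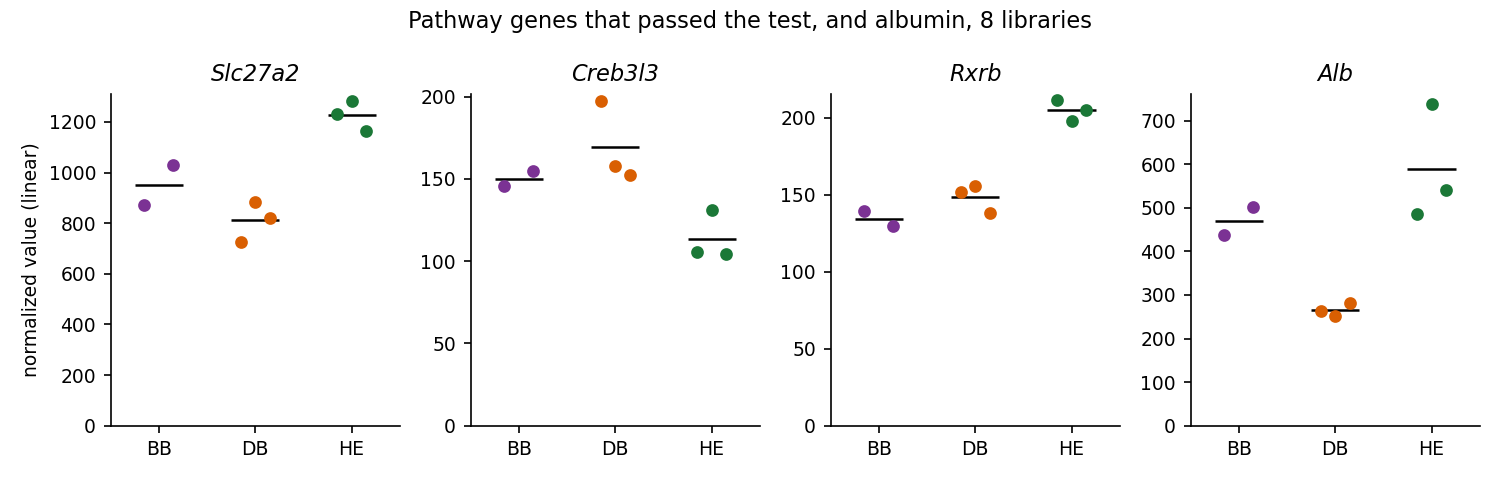
Normalized value (linear axis from 0) of Slc27a2, Creb3l3 and Rxrb, which passed the limma test in a comparison, and of Alb, in BB, DB and HE libraries; circles are the 8 libraries of the fits and lines the group means. Slc27a2, Rxrb and Alb are lower in every DB library than in every HE library, and Creb3l3 is higher.

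These calls also stood near the threshold. Slc27a2 was lost in 4 of the 8 fits that left out a library (DB replicates 1 and 6, HE replicates 2 and 4, limma adjusted p up to 0.197), Creb3l3 in all but the fit without HE replicate 3 (up to 0.265), and Rxrb in all but the fit without DB replicate 2 (up to 0.353). Over the 8 libraries Ehhadh had a Pearson r of 0.80 with Slc27a2 and of -0.85 with Creb3l3, as a description of libraries that share 3 groups. Here too the genes lay past the threshold in the same comparison, DB over HE, so an r far from 0 was set in advance.

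No gene of the mitochondrial list passed. Its 25 genes had a median log2 fold change of -0.07 in DB over HE, with 7 above 0, and of 0.01 in BB over DB, with 13 above 0. Acsl1, an acyl-CoA synthetase that feeds the pathway, had -0.32 in DB over HE (SE 0.12, limma adjusted p = 0.342), and Acacb, the acetyl-CoA carboxylase whose product inhibits Cpt1a's enzyme, -0.33 (SE 0.12, limma adjusted p = 0.303). Decr1, which reduces unsaturated intermediates, had 0.34 (SE 0.17, limma adjusted p = 0.573).

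Around Pdk4, the 13 other genes of pyruvate entry had a median of -0.06 in DB over HE and none passed. The nearest was Dld, the dihydrolipoamide dehydrogenase subunit, which was 81.0 and 93.4 in BB, 76.7, 75.3 and 71.8 in DB, and 103, 113 and 107 in HE libraries. Its log2 fold change in DB over HE was -0.53 (SE 0.12, limma adjusted p = 0.0544), and Pdhb, a subunit of pyruvate dehydrogenase itself, had -0.58 (SE 0.18, limma adjusted p = 0.225).

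The 6 ketone body genes also gave no call (median 0.15 in DB over HE and 0.09 in BB over DB). Bdh1, a ketone body dehydrogenase, had a log2 fold change of -0.39 in DB over HE (SE 0.18, limma adjusted p = 0.501).

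**Figure D4:**
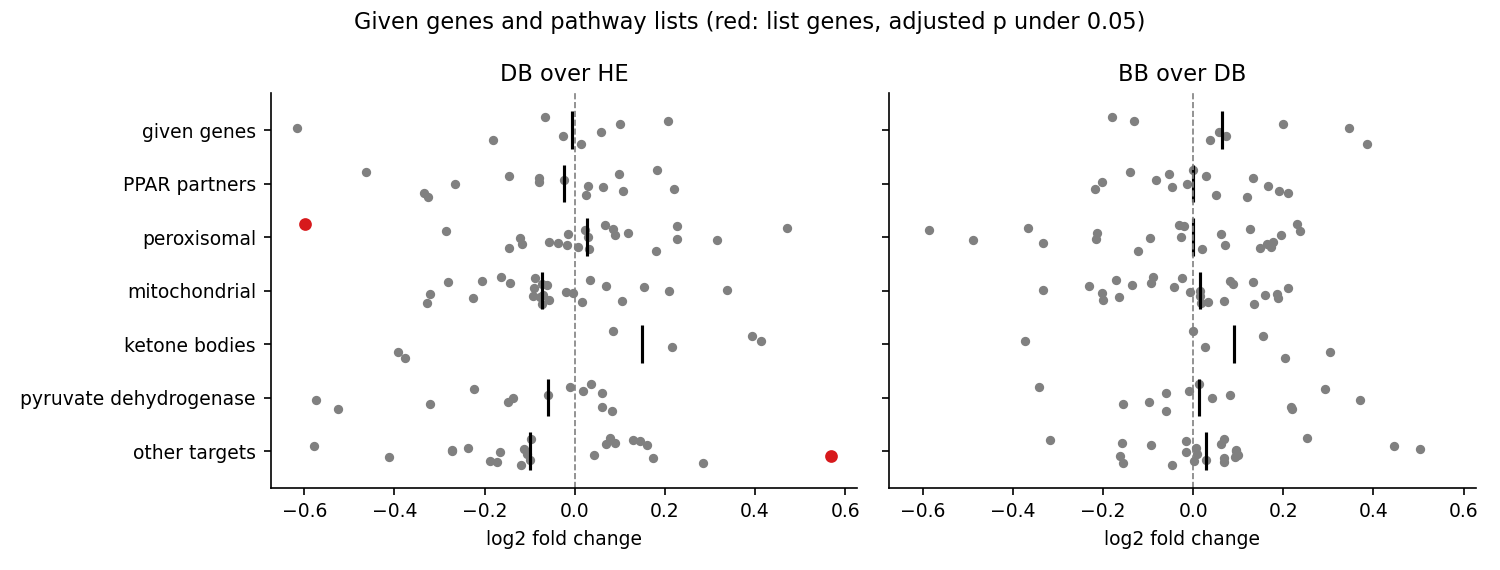
Log2 fold change of the 8 genes and of each gene of the 6 pathway lists in DB over HE and BB over DB; grey points are single genes, red points list genes with a limma adjusted p under 0.05, and black bars the medians. In DB over HE the red points are Slc27a2 (-0.60) and Creb3l3 (0.57), the lowest grey point of the top row is Ehhadh (-0.62), and no point is red in BB over DB.

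The genes whose pattern over the 8 libraries was most like that of Ppara, among 19784 genes with a mean value of at least 20, were Tigd4 (Pearson r 0.97), Enox2 (0.96), Spata48 (0.95), AC109048.1 (0.94) and Nrap (0.94), and 19 genes had r above 0.9. None of the 7 oxidation genes came near: the highest was Hsd17b4 at 0.13, while Cpt1a was at -0.63. For Ehhadh, looked up after its values were seen, the nearest was Olr53, an olfactory receptor gene (0.97), and 54 genes had r above 0.9. With so few libraries, which share depth and groups, these correlations only describe likeness.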

How the data were processed

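RNA of adipose tissue was sequenced in 9 libraries, 3 per group. The deposited tables hold a signal for each gene that the authors had normalized within each library. Multiplied by 1 factor per library, 100% of the values were whole reads within 0.1 reads. As genome builds the submitters' processing notes list GRCm38 and mm10, which are of the mouse, although the animals were rats. The aligner, the counter, the annotation and the use of strand are, in the sources used here, not given, so overlapping and antisense genes cannot be told apart. No other row had the same read counts over the 8 libraries of the fits as any of the 8 genes. Whether single reads were shared with other genes cannot be seen from this.

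The fit was limma 3.58.1 (R 4.3.3) with a trend on log2(value + 1), over the 8 libraries without BB replicate 8 and the 32371 genes that averaged at least 1 in a group, with no covariates, 5 residual degrees of freedom and Benjamini-Hochberg adjustment over all genes. Fold changes are on that log2 scale, which understates those of low genes. Alternatives (edgeR 4.0.16 and DESeq2 1.42.0 on the recovered reads, among others) follow below: in DB over HE, BB over DB and BB over HE, edgeR called 203, 1 and 67 genes. Scripts were tested on simulated data. The table of RefSeq promoters is of GRCr8 and was matched by symbol. Levels were compared between genes only in the marker percentiles and the olfactory receptor values, which ignore gene length. Transcript lengths of the builds named above were not used here.

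The 8 genes, the lists and the tests were chosen with earlier results of these data known. Named are the 8 genes, any pathway gene past the threshold, up to 3 per list with the smallest p in DB over HE and in BB over DB (not all are printed, and some are not reported here), the 5 genes most like Ppara, and the first 3 of each marker list (printed where they bear on a result). Of the 9 marker lists, the 7 other than adipocyte and hepatocyte (kidney and adrenal among them) had 0 limma calls in each comparison. The listed genes Ep300, Sirt1, Acaa1b, Decr2, Eci2 and Cd36 were not analysed here.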

Additional observations from a re-analysis of the deposited data

Results flagged for a closer look

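In BB replicate 8, which was left out of the fits, 12 of the 112 genes of the pathway lists and the 8 given genes had a value whose lower counting bound lay above all other 8 libraries. Plin2, which coats lipid droplets, was at 35516 in BB replicate 8, against at most 64.3 in the other 8 libraries. Slc27a2 was at 29121 (other libraries up to 1284), Apoc3, a lipoprotein component, at 10097 (up to 58.0) and Ppard, which encodes PPAR delta, at 3029 (up to 132). Pex7, a peroxisomal import receptor, was at 1961 (up to 41.9), Fabp1, a fatty acid binding protein, at 1712 (up to 99.8) and Ppargc1b, a coactivator, at 1024 (up to 137). Echs1, a mitochondrial hydratase, was at 688 (up to 57.2), Rxrb at 673 (up to 212), Phyh, which oxidises phytanic acid, at 439 (up to 167), Pparg at 131.7 (up to 52.4) and Acadm at 117 (up to 47.5). This is a single library that stood apart in all respects described above, with 1 read worth 14.6. The share of all genes that pass the same bound in it was not computed. The count is therefore not read as a result about these genes.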

How the results depend on the processing

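With all 9 libraries and with a gene by gene linear model, 0 genes were called in DB over HE and in BB over HE, and 0 pathway genes and 0 of the 8 given genes. Total-count scaling gave 333 genes in DB over HE. In BB over DB the calls were 5 with only the groups compared, 1 with edgeR, 2 with DESeq2, 1 with TMM scaling and 2 with total-count scaling, against 0. Pathway genes called in DB over HE were 1 with DESeq2 and with a pseudocount of 0.1, and 4 with limma-voom and with at least 10 reads per library, against 2; in BB over HE they were 0 with only the groups compared, DESeq2, TMM, total-count scaling and a pseudocount of 0.1, against 1. DESeq2 called 0 of the 8 genes in DB over HE, against 1. Leaving out 1 library gave 59 to 420 genes in DB over HE (79, 85, 124, 420 and 59 without DB 1, DB 6, HE 2, HE 3 and HE 4), 0 to 19 in BB over DB (19 and 8 without BB 1 and HE 3) and 26 to 76 in BB over HE (31, 41 and 26 without BB 4, HE 2 and HE 4). It gave 0 to 2 and 0 to 1 pathway genes in DB over HE and BB over HE, and 0 to 1 of the 8 genes in DB over HE. With all 9 libraries, Rxrb in BB over HE turned to 0.17 and the r of Tigd4 with Ppara moved to 0.073. Ehhadh in DB over HE kept its sign in 19 of 19 alternatives (log2 -0.69 to -0.55) and its call in 10. The cause of these shifts was not tested. No paired analysis was possible because the groups share at most 1 replicate number. The level per length was not run. The 8 genes had 35 to 207 reads in each of the 8 libraries, and groups held 2 or 3.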
